A study of Mus musculus with 10 samples.

Results

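The genes described are the regulators and enzymes of oxidative stress defence Nfe2l2, Keap1, Hmox1, Nqo1, Gclm, Gclc, Sod1, Sod2, Cat and Txnrd1. They were chosen by name, with no measured value in the rule but with earlier results of these data known. All 10 were found among 21887 protein-coding genes of the mouse annotation. ChIP-seq (chromatin immunoprecipitation with sequencing) recorded H3K4me3, the histone mark of active promoters, in nuclei sorted for the neuronal protein NeuN from hippocampal area CA1. The 4 libraries of CamkdeltaC transgenic mice, which carry a transgene for a splice form of calcium/calmodulin-dependent kinase II, were compared with 4 libraries of littermate controls. All 8 libraries came from male mice aged 3 months. Per the labels' protocols, transgenic mice drank vorinostat, an inhibitor of histone deacetylases, or vehicle from 2 months of age for 4 weeks, and controls drank vehicle. No library used here carries a drug label, so the arm of the transgenic libraries is not known. The promoter that drives the transgene is not given in the sources used here. Whether the 4 libraries of a group stem from different animals is not stated, so every p-value reflects only the scatter among these samples, part of which may be technical.

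NRF2, encoded by Nfe2l2, is the transcription factor of this response, and KEAP1 holds it in the cytoplasm and has it degraded. When reactive oxygen or electrophiles modify KEAP1, NRF2 enters the nucleus and binds antioxidant response elements near genes for haem breakdown, quinone reduction, glutathione synthesis and thioredoxin reduction. Superoxide dismutases and catalase remove superoxide and hydrogen peroxide directly. Neurons are known to hold NRF2 at low levels, and in brain much of this response is carried by astrocytes.

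The data are 1 deposited peak list per library, with no read counts, so sequencing depth is unknown. The lists held 60388 to 102285 peaks over 45.2 to 57.7 Mb in transgenic libraries and 51903 to 66811 peaks over 37.5 to 43.1 Mb in control libraries. Transgenic replicate 1 stood apart: it had the most peaks, and it shared 46.8 to 51.6% of covered length with each other library, against 58.2 to 65.2% in the pairs without it. Of 8 neuronal marker genes, 8 carried a peak at a gene end in all 8 libraries, with summed breadths of 20182 to 22023 bp in transgenic libraries and 20393 to 22214 bp in controls. This count was 4 of 8 for astrocyte markers (5086 to 7105 bp in transgenic, 5297 to 6378 bp in control libraries, with no peak at Aldh1l1 or S100b), 3 of 8 for the oligodendrocyte lineage (3831 to 5566 bp in transgenic, 4269 to 6125 bp in control libraries, with none at Mog or Mag), 0 of 8 for microglia (0 to 482 bp in transgenic, 0 to 299 bp in control libraries, with none at P2ry12, Tmem119, Csf1r, Aif1, Itgam or Trem2) and 2 of 8 for endothelium (1350 to 3411 bp in transgenic, 2452 to 3645 bp in control libraries, with none at Pecam1, Tek or Slco1a4). Among the tested promoters of these lists, differences were below 0 at 5 of 8 neuronal (median log2 -0.01), 3 of 4 astrocyte (-0.03), 3 of 4 oligodendrocyte (-0.32) and 4 of 4 endothelial genes (-0.42). None passed. Over all 14753 promoters 7904 were below 0, with a median of -0.01. Of the endothelial genes, Flt1, Cldn5 and Kdr had their lowest transgenic value in transgenic replicate 1, at 0, 232 and 1100 bp. The other transgenic libraries had 468 to 1310 bp at Flt1, 678 to 848 bp at Cldn5 and 1175 to 1457 bp at Kdr. The Flt1 mean was higher in transgenic libraries, at 648 ± 553 bp, than in controls, at 591 ± 341 bp. The oligodendrocyte and endothelial lists include genes near the floor within 2 kb of the gene end. There Esam had a peak in 4 libraries (4.5 ± 9 bp in transgenic libraries, 78 ± 96 bp in controls) and Olig2 in 5 (139 ± 114 bp and 449 ± 741 bp). At Esam these were only the edge of a wider mark. In full, that mark covered 1341 ± 279 bp in transgenic libraries and 1378 ± 219 bp in controls, with peaks in all 8 libraries. Cnp, a myelin enzyme, was the 1 marker whose groups did not overlap at a gene end, against 2.35% of all promoters. It had 867 ± 13.7 bp in transgenic libraries and 1039 ± 27.1 bp in controls (SD, n = 4 each; limma adjusted p = 1.00). Mbp, of the same list, went the other way, with 2366 ± 93.7 bp in transgenic libraries and 2294 ± 95.5 bp in controls. The part of these cell types in the results was not tested. In sorted nuclei measured in bulk, a smaller share of marked nuclei and a lower level of the mark per nucleus cannot be told apart.

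Promoter sequences of 8 of the 10 genes were matched in RefSeq (GRCm38.p6, the build whose coordinates are those of mm10), while Hmox1 and Gclc are named only. The 250 bases before the annotated start are printed for the 4 starts that hold the core of the antioxidant response element, the sequence NRF2 binds, written TGACNNNGC and searched on both strands. Nqo1 and the distal start of Txnrd1 follow as starts without it in these 250 bases, the first with narrow and the other with no H3K4me3. Bases further upstream were not searched. Capitals mark the core, and each sequence runs 5′ to 3′ along its gene.
Nfe2l2, chr2:75704664-75704913, minus strand: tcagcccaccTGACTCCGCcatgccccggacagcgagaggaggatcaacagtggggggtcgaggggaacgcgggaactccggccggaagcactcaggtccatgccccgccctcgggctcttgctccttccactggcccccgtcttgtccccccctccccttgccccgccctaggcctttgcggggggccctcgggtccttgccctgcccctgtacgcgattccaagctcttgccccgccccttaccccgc
Gclm, chr3:122245307-122245556, plus strand: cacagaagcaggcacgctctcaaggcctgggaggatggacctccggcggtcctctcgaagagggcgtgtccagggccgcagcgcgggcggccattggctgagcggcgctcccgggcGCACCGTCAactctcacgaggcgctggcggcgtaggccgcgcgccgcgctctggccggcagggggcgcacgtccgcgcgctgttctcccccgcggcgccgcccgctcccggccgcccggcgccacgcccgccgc
Sod1, chr16:90220512-90220761, plus strand: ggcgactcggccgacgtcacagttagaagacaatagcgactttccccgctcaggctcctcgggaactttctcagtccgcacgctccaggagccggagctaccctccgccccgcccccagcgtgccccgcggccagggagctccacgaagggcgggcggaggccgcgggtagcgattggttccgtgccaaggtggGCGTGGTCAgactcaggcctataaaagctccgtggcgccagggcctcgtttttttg
Txnrd1 inner start, chr10:82858956-82859205, plus strand: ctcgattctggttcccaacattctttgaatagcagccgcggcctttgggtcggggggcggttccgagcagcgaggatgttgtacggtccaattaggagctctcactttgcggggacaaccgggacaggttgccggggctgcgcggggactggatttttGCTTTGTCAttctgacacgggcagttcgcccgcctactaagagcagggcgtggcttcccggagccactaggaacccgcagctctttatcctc
Nqo1, chr8:107403206-107403455, minus strand: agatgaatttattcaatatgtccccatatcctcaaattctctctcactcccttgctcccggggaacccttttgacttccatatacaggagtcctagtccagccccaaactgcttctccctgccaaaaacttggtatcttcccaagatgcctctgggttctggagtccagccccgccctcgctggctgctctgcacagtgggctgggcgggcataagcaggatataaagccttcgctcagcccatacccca
Txnrd1 distal start, chr10:82833701-82833950, plus strand: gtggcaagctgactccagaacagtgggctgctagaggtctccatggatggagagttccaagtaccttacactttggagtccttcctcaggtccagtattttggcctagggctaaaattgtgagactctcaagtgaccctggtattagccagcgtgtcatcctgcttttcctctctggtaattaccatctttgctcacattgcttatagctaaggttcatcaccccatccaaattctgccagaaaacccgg

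The core stands 240 bases before the start of Nfe2l2 as TGACTCCGC, 134 before Gclm as GCACCGTCA, 56 before Sod1 as GCGTGGTCA and 92 before the inner Txnrd1 start as GCTTTGTCA. The last 3 are on the opposite strand. In 300-base promoters (250 before and 50 after the start) the core occurs in 2759 of 21263 promoters of coding genes, which is 12.98%. No promoter of these genes held the AP-1 site TGANTCA, present in 6.99% of coding promoters, or the E-box CACGTG, present in 7.84%. A match describes letters in this window and not binding. The promoters differed in base composition: GC was 79.7% with 48 CpG dinucleotides at Gclm, 66.7% with 34 at Sod1 and 61.3% with 27 at the inner Txnrd1 start, against 53.7% with 5 at Nqo1 and 51.3% with 3 at the distal Txnrd1 start. GC did not follow the mark throughout: Keap1, broadly marked, had 53.3% with 13 CpG, the other inner Txnrd1 start, covered in full in all 8 libraries, had 48.0% with 12, and Nfe2l2, narrowly marked, had 68.7% with 18. Sod2 had 64.3% with 21 and Cat 62.0% with 11. The median coding promoter had 56.3% GC and 13 CpG.

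Breadth was taken as the base pairs covered by peaks within 2 kb each side of the better covered gene end, hereafter the window. Keap1, both superoxide dismutases and Gclm had broad marks, Cat and Gclc were intermediate, and Nfe2l2, Hmox1 and Nqo1 had narrow ones. Breadth did not sort by role. Genes of the NRF2 response were found among the narrow marks (Hmox1, Nqo1), the intermediate (Gclc) and the broad (Gclm). Among 14753 tested promoters, mean breadth stood at percentile 84.7 for Sod1, 84.0 for Keap1, 80.3 for Sod2, 71.5 for Gclm, 54.8 for Cat, 43.0 for Gclc, 23.1 for Nfe2l2, 15.6 for Hmox1 and 12.6 for Nqo1. Both gene ends of Txnrd1 were without a peak in all 8 libraries, and its mark lay at inner starts.

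**Figure D1:**
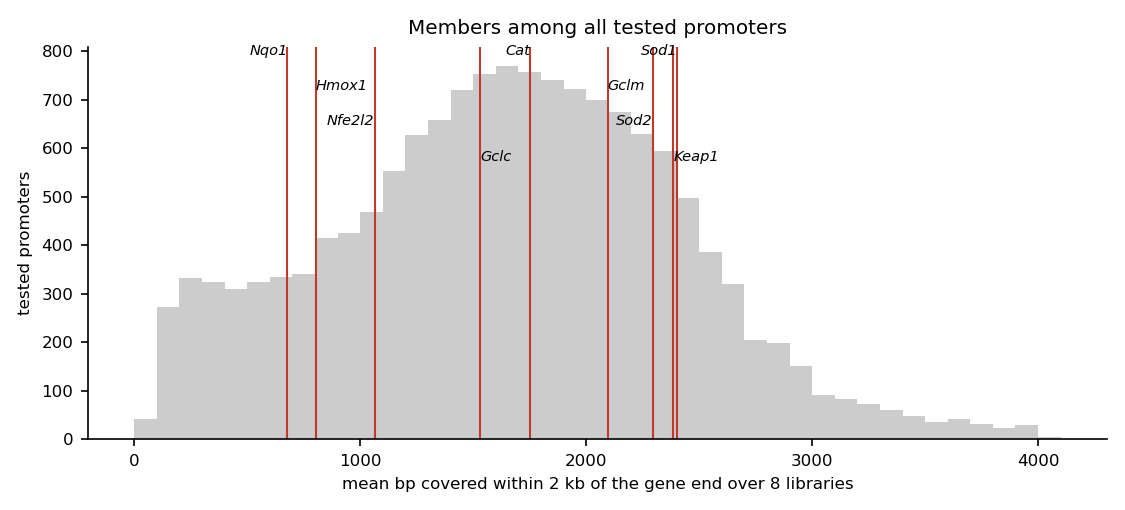
Number of tested promoters (vertical axis) by mean bp covered in this window over 8 libraries (horizontal axis), with a red line at each of 9 genes. Nqo1, Hmox1 and Nfe2l2 sit on the left slope at percentiles 12.6 to 23.1, and Sod2, Keap1 and Sod1 sit right of the crest at percentiles 80.3 to 84.7.

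The union region, the stretch joined from overlapping peaks of the 8 lists, is not cut at the window edge. By its covered length over all 8 libraries Keap1 averaged 2803 bp, Txnrd1 2604, Sod1 2454, Sod2 2339, Gclm 1864, Cat 1753, Gclc 1496, Nfe2l2 1063, Hmox1 804 and Nqo1 678 bp. Between neighbours in this order, only the ranges of Sod2 and Gclm did not overlap. Keap1 was wider than Txnrd1, and Sod2 than Gclm, in 8 of 8 libraries, while Nfe2l2 was wider than Hmox1, and Hmox1 than Nqo1, in only 5 of 8. The authors' fold enrichment at the summit, ranked within each list, put Hmox1 8th, Nqo1 9th and Nfe2l2 10th of the 10 genes in every one of the 8 lists. These folds are the authors' values: 3.93 to 7.62 at Nfe2l2, 6.55 to 12.1 at Nqo1, 13.3 to 25.5 at Hmox1 and 18.2 to 54.9 at the other 7 genes. The lowest of those 7-gene folds was Gclm in transgenic replicate 1, where Gclm ranked 7th, against 1st to 4th in the other 7 lists.

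**Figure D2:**
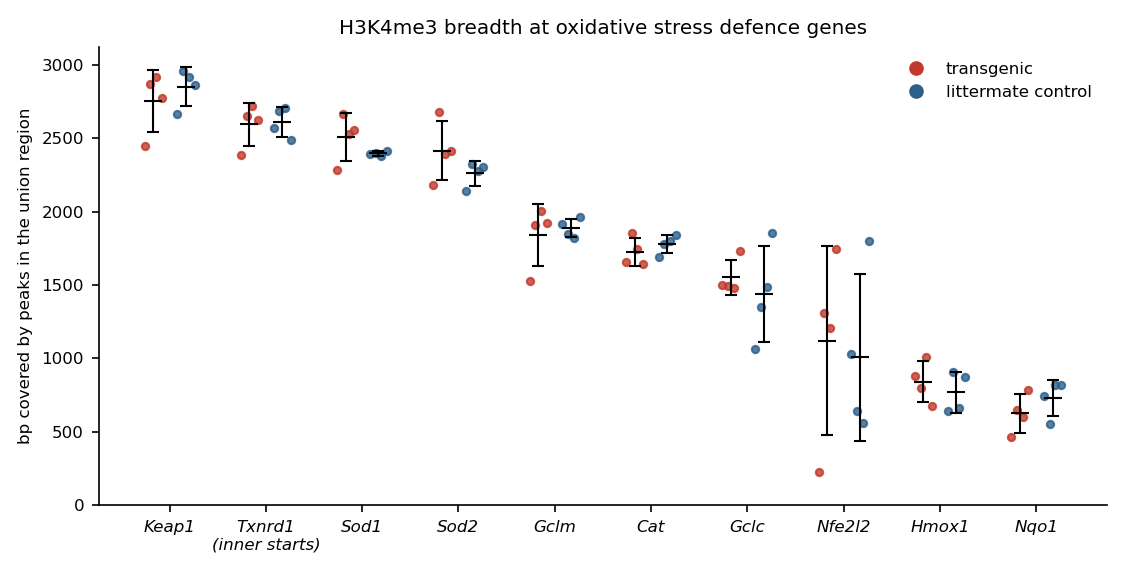
Covered bp in the union region of each gene (vertical axis) in transgenic (red, left) and littermate control (blue, right) libraries, with 1 point per library and the group mean ± SD as a bar. Points of both groups overlap at all 10 genes, the spread is widest at Nfe2l2 (222 to 1799 bp), and Keap1 has the highest mean (2803 bp).

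Of the pair that sets the response, Nfe2l2 was the most variable of the 10 genes, with a coefficient of variation of 53.1% in region length over all 8 libraries, against 6.12% at Keap1. Nfe2l2 (29151 bp long on chr2) had 222, 1310, 1205 and 1744 bp in transgenic libraries 1 to 4, against 1027, 639, 559 and 1799 bp in control libraries 1 to 4. The lowest and highest values belong to opposite groups, and the groups overlapped over most of their range. Means were 1120 ± 643 bp in transgenic libraries and 1006 ± 567 bp in controls (SD, n = 4 each), with a log2 difference of -0.0037 ± 0.50 (SE, limma, 95% interval -1.13 to 1.12), an interval that runs from 0.458-fold to 2.17-fold. Without transgenic replicate 1 the log2 difference was 0.51.

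The region, chr2:75703502-75705397, spans the start, and no base of it was covered in all 8 libraries. In transgenic replicate 1 the only peak ran from 75704966 to 75705187, entirely upstream of the start at 75704663, and in 3 of 8 libraries the start base itself was uncovered. The 300-base promoter of Nfe2l2, which holds the printed antioxidant core, was covered over 0, 300, 210 and 300 of 300 bases in transgenic libraries, against 300, 244, 131 and 300 in control libraries. Coverage was incomplete in 2 libraries of each group.

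Keap1 had 1950, 2410, 2435 and 2337 bp in transgenic libraries, against 2370, 2530, 2577 and 2478 bp in control libraries. Transgenic replicates 1 and 4 were below all controls, and the other transgenic libraries lay within the control range. Means were 2283 ± 226 bp in transgenic libraries and 2489 ± 88.9 bp in controls (n = 4 each, SD). The log2 difference of -0.14 ± 0.06 (SE, 95% interval -0.27 to -0.02) had an unadjusted limma p of 0.028, the only one under 0.05 among the 9 genes, and an adjusted p of 1.00, so Keap1 did not pass. The unadjusted limma p was itself above 0.05 without transgenic replicate 1 (0.063, log2 difference -0.11) and without transgenic replicate 4 or control replicate 2 or 3 (up to 0.076), without centring (0.123) and in a 5 kb window (0.212, difference -0.070), with adjusted p-values of 0.902 or more throughout. It was under 0.05 in 18 settings, the reported one included, and the difference kept its sign in all 23 alternatives. An unadjusted p under 0.05 was reached by 608 of 14753 promoters, or 4.12%. The region (chr9:21236834-21239912) averaged 2754 ± 212 bp in transgenic libraries and 2853 ± 132 bp in controls, with a log2 difference of -0.16, or -0.051 without centring, and S1pr5, the nearest coding gene, lay 3005 bp away.

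**Figure D3:**
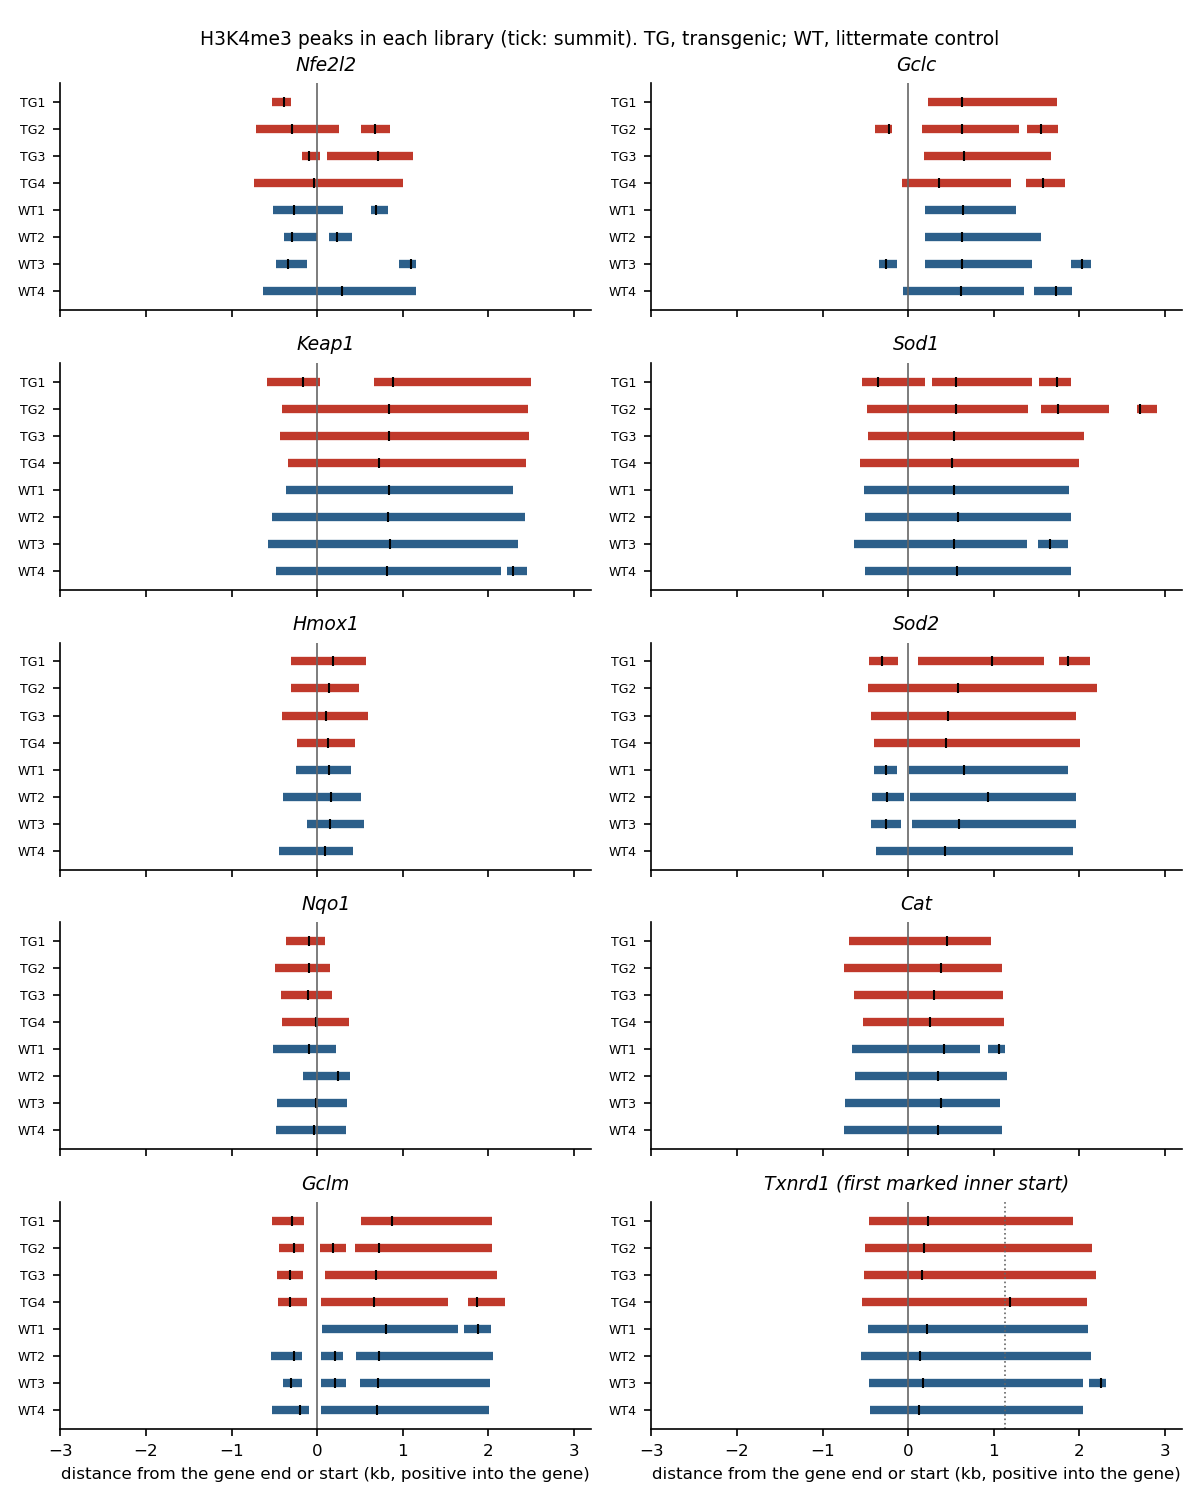
Peaks (bars) and their summits (ticks) in the union regions around each gene in the 4 transgenic (TG, red, above) and 4 littermate control (WT, blue, below) libraries. The horizontal axis is the distance in kb from the gene end, or for Txnrd1 from its first marked inner start, positive into the gene; the Gclm panel shows a gap at the gene end in all 8 libraries, and the peaks at Nfe2l2 differ in position and length from library to library.

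Hmox1 and Nqo1 encode haem oxygenase 1, which opens the haem ring, and a quinone reductase, and both had 1 narrow peak in each of the 8 libraries. Hmox1 had 880, 797, 1006 and 675 bp in transgenic libraries, against 640, 905, 660 and 871 bp in control libraries. These values interleave between the groups. Means were 840 ± 139 bp in transgenic libraries and 769 ± 138 bp in controls (SD, n = 4 each; log2 difference 0.09 ± 0.16 SE, 95% interval -0.27 to 0.46). The mark lay at chr8:75093167-75094216, with 57.0% of it inside the gene.

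Nqo1 had 461, 648, 602 and 786 bp in transgenic libraries, against 741, 553, 817 and 815 bp in control libraries. Transgenic replicate 1 was lowest, the other 3 transgenic libraries lay inside the control range, and 2 controls lay inside the transgenic range. Means were 624 ± 134 bp in transgenic libraries and 732 ± 124 bp in controls, with a log2 difference of -0.23 ± 0.18 (SE, 95% interval -0.62 to 0.17), which did not pass. Its region, chr8:107402819-107403721, was the one with the smallest share inside the gene, 42.9%. The 300-base promoter of Nqo1, poor in CpG and printed above for the bases before the start, was covered in full in 7 of 8 libraries. In control replicate 2 it was covered over 216 bases.

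Gclm and Gclc encode the modifier and the catalytic subunit of glutamate-cysteine ligase, which makes the first bond of glutathione. Gclm had 1869, 2165, 2207 and 2063 bp in transgenic libraries, against 1886, 2163, 2026 and 2385 bp in control libraries. The groups overlapped almost fully. Means were 2076 ± 151 bp in transgenic libraries and 2115 ± 213 bp in controls (log2 difference -0.04 ± 0.06 SE, 95% interval 0.885-fold to 1.06-fold). The mark was split at the gene end: a main region inside the gene at chr3:122245517-122247678 and an upstream one at chr3:122244947-122245394. The upstream one had 382, 298, 304 and 334 bp in transgenic libraries, against 0, 363, 227 and 430 bp in control libraries, so control replicate 1 alone lacked it.

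The end of Gclm in the gene table, base 122245487, was covered in 0 of 8 libraries, whereas Keap1, Hmox1, Nqo1, Sod1 and Cat had theirs covered in all 8. It lies in the stretch from 122245395 to 122245516, 122 bp that no peak of any library covered. The annotated start in the promoter table is a later base, 122245557, and was covered in 2 of 4 transgenic and 4 of 4 control libraries, transgenic replicates 1 and 3 being the exceptions. The printed Gclm sequence spans the uncovered stretch and some bases on each side of it. The 300-base promoter was covered over 31, 121, 37 and 139 of 300 bases in transgenic libraries, against 68, 74, 77 and 162 in control libraries. The mean of 29.5% stood at percentile 8.53 among 13071 marked coding promoters, whose mean coverage had a median of 92.3%. This promoter is also GC rich, at percentile 98.5 of coding promoters, and the part of base composition in its coverage was not tested.

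Gclc had 1502, 1696, 1482 and 1731 bp in transgenic libraries, against 1066, 1353, 1549 and 1857 bp in control libraries. The control values enclosed the transgenic ones. Means were 1603 ± 129 bp in transgenic libraries and 1456 ± 333 bp in controls (log2 difference 0.13 ± 0.12 SE, 95% interval 0.908-fold to 1.32-fold). The difference was 0.020 without control replicate 1, 0.0090 with equal numbers of top-ranked peaks and 0.0042 in a 1 kb window. The Gclc start was covered in 2 of 8 libraries, transgenic replicate 4 and control replicate 4, and the region chr9:77754465-77756672 lay 96.8% inside the gene. A further region, chr9:77749756-77751527, stood 3008 to 4779 bp upstream of Gclc with no annotated gene on it. It had 1448, 1499, 1580 and 1599 bp in transgenic libraries, against 1403, 1372, 1448 and 1702 bp in control libraries, and its means of 1532 ± 70.6 bp in transgenic libraries and 1481 ± 150 bp in controls differed by less than the control spread.

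Sod1, the cytoplasmic copper and zinc superoxide dismutase, Sod2, the manganese enzyme of mitochondria, and Cat, the peroxisomal catalase, had broad to intermediate marks with little spread. Sod1 had 2283, 2326, 2474 and 2557 bp in transgenic libraries, against 2392, 2400, 2381 and 2416 bp in control libraries. All control values fell inside the transgenic range, and the means were 2410 ± 128 bp in transgenic libraries and 2397 ± 14.7 bp in controls (SD, n = 4 each). The log2 difference was -0.01 ± 0.05 (SE, 95% interval from 0.922-fold to 1.06-fold). Its region was chr16:90220134-90223105.

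Sod2 had 2051, 2467, 2395 and 2399 bp in transgenic libraries, against 2139, 2325, 2277 and 2305 bp in control libraries. Transgenic replicate 1 was lowest and the other 3 transgenic libraries were above all controls. Means were 2328 ± 188 bp in transgenic libraries and 2262 ± 84.0 bp in controls, with a log2 difference of 0.02 ± 0.05 (SE, 95% interval 0.938-fold to 1.09-fold), and of 0.04 without transgenic replicate 1. At Sod2 (region chr17:13007373-13010050) the start base was covered in 4 of 8 libraries, transgenic replicates 2, 3 and 4 and control replicate 4, and a gap stood there in the others.

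Cat had 1659, 1856, 1746 and 1646 bp in transgenic libraries, against 1693, 1779, 1802 and 1842 bp in control libraries. All control values fell between the lowest and highest transgenic ones. Means were 1727 ± 96.9 bp in transgenic libraries and 1779 ± 63.0 bp in controls (log2 difference -0.06 ± 0.06 SE, 95% interval 0.868-fold to 1.06-fold). Over the region chr2:103483996-103485906 the coefficient of variation across all 8 libraries was 4.60%, and 73.3% of the region was covered in all 8.

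Txnrd1 encodes the cytoplasmic thioredoxin reductase, and it differed from the other 9 genes in where its mark was. The distal start at chr10:82833951, whose upstream sequence is printed above, had 0 bp in all 8 libraries. Peaks stood instead over a pair of annotated inner starts at 82859206 and 82860341, in a region (chr10:82858658-82861520) that the noncoding gene Gm38560 overlaps. The marks of Txnrd1 and Gm38560 cannot be told apart there. That region had 2384, 2655, 2719 and 2626 bp in transgenic libraries, against 2569, 2685, 2704 and 2491 bp in control libraries, so the highest and the lowest value were both transgenic. Means were 2596 ± 147 bp in transgenic libraries and 2612 ± 100 bp in controls (log2 difference -0.11 ± 0.07 SE, 95% interval -0.26 to 0.04). Without centring each library the log2 difference of this region was -0.0096, so most of the -0.11 came with the centring. It was the steadiest of the 10 regions, with a coefficient of variation of 4.48% and 82.9% of its length covered in all 8 libraries. Among 4604 coding genes that had no peak at either gene end in any library and an annotated start in the promoter table, 345, or 7.49%, likewise carried a peak at an annotated start in all 8.

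Across the 9 genes tested by promoter, 0 passed the threshold of an adjusted p under 0.05 (limma, Benjamini-Hochberg over all promoters), and so did 0 of 14753 promoters, or 0%. The adjusted p was 1.00 at each of the 9. The log2 difference was above 0 at 3 and below 0 at 6 genes with a median of -0.01, against 6849 above and 7904 below with a median of -0.01 over all promoters. The 95% interval lay within a 1.5-fold change either way at 7 of 9 genes, as it did at 81.4% of all promoters. The exceptions were Nfe2l2 and Nqo1. Groups did not overlap at 0 of 9 genes, against 346 of 14753 promoters, or 2.35%.

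By region, 0 of the 10 genes passed, against 35 of 72683 regions, or 0.0482%, and the lowest adjusted p was 0.702 by limma. An unadjusted limma p under 0.05 was found at Keap1 alone, whose region shares its peaks with the window. Of all 72683 regions, 3269 had such a p with a higher and 1316 with a lower transgenic value. At Hmox1 and Gclc the region difference lay above 0, and at the other 8 genes it lay below. The 10 genes had a median of -0.10, against 0.03 over all regions, where 34442 of 72683 lay below 0. All regions are mostly narrower: their median breadth was 195 bp, and 32.1% had a peak in all 8 libraries. At the neuronal markers region differences ran from -0.14 (Tubb3) to 0.06 (Map2), with only Map2 and Camk2a above 0. Whether -0.10 is particular to the 10 genes was not tested. Centring each library moved the median of all regions to 0.03, against 0.13 without centring, and without it Nfe2l2, Sod1 and Sod2 also stood above 0. Groups did not overlap at 0 of 10 genes, against 3.43% of all regions. No base at any of the 10 genes was covered in all 4 libraries of one group and in none of the other.

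**Figure D4:**
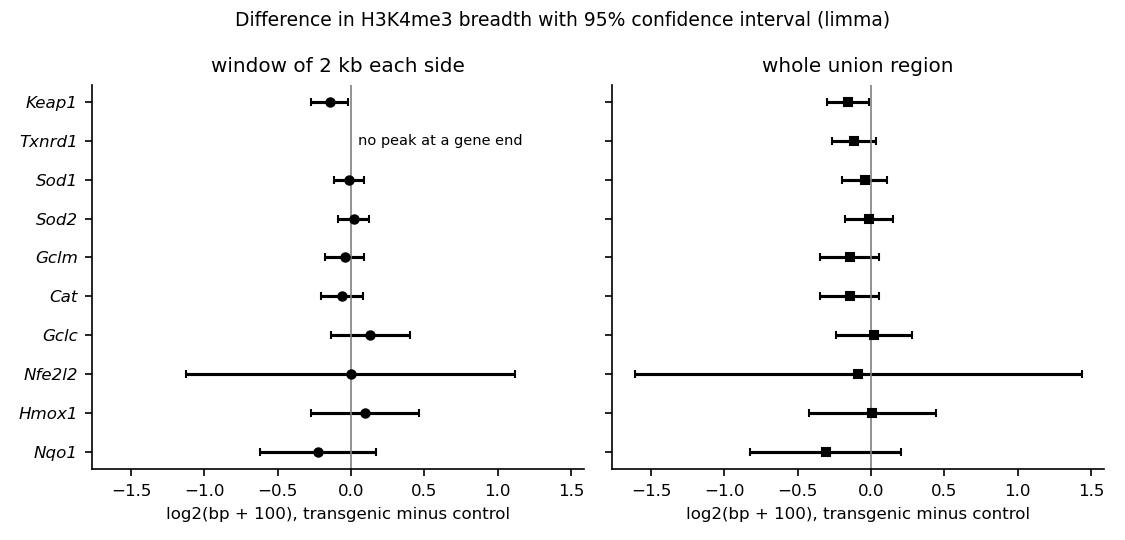
Log2 difference in covered bp, transgenic minus littermate control (horizontal axis), with its 95% interval for each gene, in the window and in the union region. Intervals at Nfe2l2 are the widest (-1.13 to 1.12 by window), and Keap1 is the only gene whose interval lies off 0 (-0.27 to -0.02 by window).

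The summit of the strongest peak lay inside the gene at 7 of the 9 genes in all 8 libraries. Over 13538 promoters the median summit stood 353 bp into the gene, quartiles 146 to 615 bp, and 81.0% of mean positions were inside it. Sod1 had the most fixed summit, at 563, 559, 542 and 515 bp in transgenic libraries, against 532, 580, 542 and 575 bp in control libraries. The most mobile was Nfe2l2, at -391, -296, 712 and -37 bp in transgenic libraries, against -275, 235, -336 and 285 bp in control libraries, with negative values upstream. Its range of 1103 bp stood at percentile 89.0 of promoters, whose median range was 304 bp.

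Nqo1 was the other gene with upstream summits, at -89, -89, -107 and -11 bp in transgenic libraries, against -89, 241, -14 and -36 bp in control libraries. Only control replicate 2 had its summit inside Nqo1, and that library also had the incomplete promoter coverage given above. The Nqo1 mean was -74.0 ± 42.8 bp in transgenic libraries and 25.5 ± 147 bp in controls (n = 4 each, SD). At Keap1 summits ran from 727 to 881 bp in transgenic libraries and from 822 to 855 bp in controls, and at Hmox1 from 108 to 180 bp in transgenic libraries and from 95 to 167 bp in controls.

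At Gclc the summit stood at 628, 632, 649 and 363 bp in transgenic libraries, against 641, 632, 626 and 621 bp in control libraries. At Txnrd1, counted from the inner start at 82859206, it stood at 227, 188, 160 and 1193 bp in transgenic libraries, against 219, 137, 171 and 132 bp in control libraries. Transgenic replicate 4 was the only library apart at both genes, and its Txnrd1 summit lay past the other inner start. None of the 9 summit offsets tested by limma passed the adjusted threshold, against 6 of 13538 promoters, or 0.0443%. Groups overlapped at all 9, as at all but 1.4% of promoters. The unadjusted limma p was under 0.05 at 0 of the 9, and its share over all promoters is not given here.

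**Figure D5:**
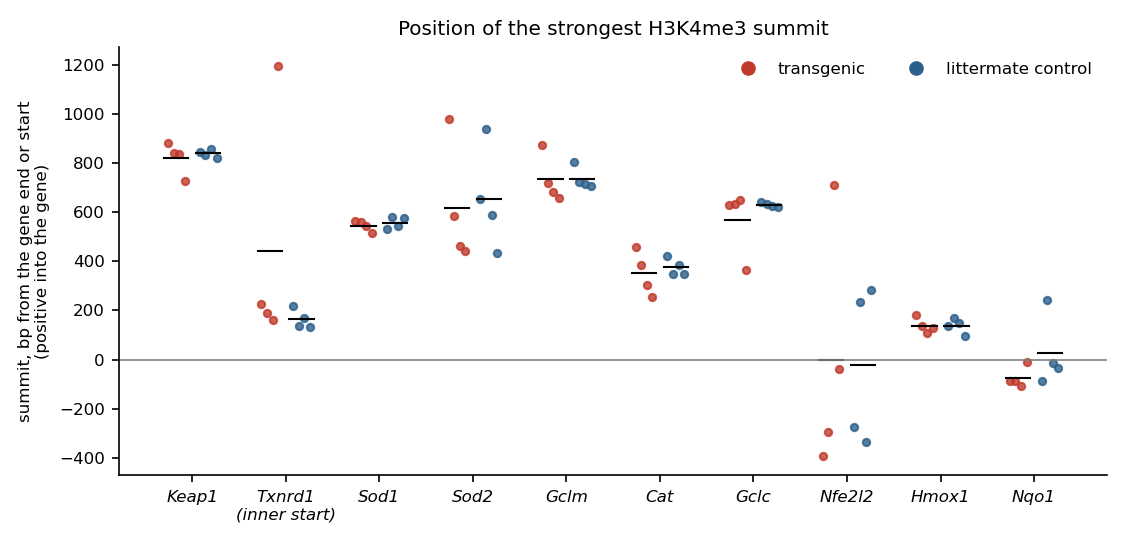
Position of the strongest summit in bp from the gene end, or for Txnrd1 from its inner start (vertical axis, positive into the gene), in transgenic (red, left) and littermate control (blue, right) libraries, 1 point per library. Sod1 points are tightly grouped between 515 and 580 bp, Nfe2l2 points spread from -391 to 712 bp, and transgenic replicate 4 is apart at Gclc (363 bp) and Txnrd1 (1193 bp).

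The wider pathway was read from 6 lists with 78 further genes. Peaks at a gene end were present in all 8 libraries at 71 of the 78, against 13538 of all 21887 protein-coding genes. Of the 78, 72 were tested by promoter breadth, and 0 passed. None had an unadjusted p under 0.05, 36 differences were above and 36 below 0, and their median was 0.00. Partners and regulators of NRF2, such as the ubiquitin ligase subunit Rbx1 and the redox protein Park7, were marked in 13 of 13 cases, with 5 differences above and 8 below 0. Rbx1 averaged 2065 ± 76.0 bp in transgenic libraries and 2010 ± 221 bp in controls, and Park7 955 ± 183 bp in transgenic libraries and 1130 ± 308 bp in controls.

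Of 18 glutathione genes, 16 were marked in all 8 libraries, and 9 of 17 tested differences were above 0. Gpx7, a peroxidase of the endoplasmic reticulum, averaged 1428 ± 70.4 bp in transgenic libraries and 1246 ± 63.3 bp in controls, with no overlap (log2 difference 0.16 ± 0.08 SE; limma adjusted p = 1.00). Gpx3, the secreted glutathione peroxidase, averaged 471 ± 190 bp in transgenic libraries and 666 ± 138 bp in controls. Of 16 thioredoxin and peroxiredoxin genes, 14 were marked, with 8 differences above and 6 below 0. Txn2, the mitochondrial thioredoxin, averaged 2007 ± 111 bp in transgenic libraries and 1791 ± 39.4 bp in controls without overlap (limma adjusted p = 1.00), and Prdx2 averaged 2182 ± 233 bp in transgenic libraries and 2374 ± 198 bp in controls. Gpx7 and Txn2 were the 2 genes of 72 without overlap, against 2.35% of all promoters, and neither passed the adjusted threshold.

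Of 8 genes that supply NADPH, 7 were marked, with 5 differences above and 2 below 0. Pgd averaged 1753 ± 113 bp in transgenic libraries and 1634 ± 214 bp in controls, and Tkt, the transketolase, 1979 ± 151 bp in transgenic libraries and 2228 ± 336 bp in controls. All 12 haem, iron and quinone genes were marked, split 6 and 6 in direction. Cbr1, a carbonyl reductase, averaged 1205 ± 139 bp in transgenic libraries and 1089 ± 151 bp in controls, and the transporter Abcc1 1527 ± 258 bp in transgenic libraries and 1558 ± 144 bp in controls. Of 11 other superoxide and stress regulators, 9 were marked, with 3 differences above and 6 below 0. Sesn2 averaged 1671 ± 55.1 bp in transgenic libraries and 1587 ± 194 bp in controls, and Ccs, the copper chaperone of SOD1, 1611 ± 41.9 bp in transgenic libraries and 1721 ± 97.3 bp in controls.

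The 4 genes with no peak at either gene end were Slc7a11, Idh2, Sod3 and Ncoa7. Like Txnrd1, Idh2 and Ncoa7 were marked at an annotated start away from those ends in all 8 libraries, over 1734 to 2113 bp and 2103 to 2683 bp. Slc7a11, the cystine carrier, had 0 to 821 bp at its start, with a peak in 7 of 8 libraries. Sod3, the extracellular dismutase, had no start in the promoter table.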

How the data were processed

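H3K4me3 was measured in 4 CamkdeltaC transgenic and 4 littermate control libraries, grouped by sample title; 2 samples called input were not analysed here. The submitters' processing notes name mm10, limma, DiffBind, MACS2, deepTools 3.0.1, SAMtools 1.3.1, Bowtie2 2.0.2 and FastQC 0.11.5; settings and the background library of each list are not given in the sources used. Per the labels' protocols, single 50-bp reads were taken from 0.2 µg of chromatin and 1 µg of antibody. The authors deposited 1 headerless peak list per library giving each peak a fold enrichment over background, a −log10 p-value, a −log10 q-value and an integer score. The smallest deposited −log10 q-values were 1.31 to 1.42. The letters in sample descriptions and in list names differ while the group names match. No read counts or depth are held, and a deeper library or better precipitation can widen peaks.

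Peaks were merged within a library and covered bp counted in a window of 2 kb each side at the better covered end of each RefSeq gene, and in union regions (1 bp overlap). Promoters with a peak in at least 4 libraries and regions with at least 2 were fitted as log2(bp + 100), centred per library, with limma 3.58.1 in R 4.3.3 (trended, robust, Benjamini-Hochberg at 0.05 over all features), so changes of narrow features are understated. Summit offsets were fitted uncentred, at promoters with a peak in all 8 libraries. Positions came from RefSeq gene and promoter tables, and all named genes were found in the gene table. The genes and lists were chosen with earlier results of these data known; the 10 genes and, per pathway list, the lowest p in each direction, any gene past the threshold and those with no peak are named. Cnp, Mbp, Esam, Olig2, Flt1, Cldn5, Kdr and Camk2a were chosen after their values were seen. Other scalings, pseudocounts, filters, windows and left-out libraries were tried. Python 3.11.15, pandas 2.3.3, numpy 2.4.6 and matplotlib 3.10.9 were used.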

Additional observations from a re-analysis of the deposited data

Results flagged for a closer look

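Of 58 groups of 4 libraries examined at these genes, 3 had a library far from the other 3, a rate that chance gives in about 1 in 20 groups. All 3 were transgenic replicate 4. At Gclc the union region measured 1731 bp there, against 1482 to 1502 bp in the other transgenic libraries, and the summit stood 363 bp into the gene, against 628 to 649 bp. At Txnrd1 the summit stood 1193 bp past the inner start, against 160 to 227 bp in the other transgenic libraries.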

How the results depend on the processing

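The count of promoters past the threshold was 0 under every alternative except ordinary variances, which gave 5, and 0 without each library in turn. Against 35 regions as reported, 118 passed without centring, 21 with a pseudocount of 20 bp, 0 with a peak required in 4 libraries, 296 with ordinary variances, 57 with array weights, 0 with a replicate block, 0 with equal numbers of top-ranked peaks and 3 at a −log10 q of at least 5; leaving out 1 library gave 15 (transgenic replicate 1) to 54 (control replicate 3). Against 6 summit offsets as reported, 0 passed with the replicate block, 4 with the widest peak, and 8 to 22 (22 without transgenic replicate 1) with 1 library left out. Deviations of same-numbered libraries correlated at -0.115 to 0.321, not every library correlated best with its own number, and the numbers are shared as labels only, so the block does not describe a pairing in the design.

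The 10 genes passed under none of 518 alternative values, of which 63, in 17 of 28 results, changed sign. Opposite-sign window differences (log2) were, at Nfe2l2, 0.017 without centring, 0.043 with 500 bp, 0.41 with array weights, 0.73 with equal peak numbers, 0.92 at the stricter q and 0.11 in a 1 kb window; at Sod1, 0.0060, 0.053 and 0.041 without centring, with equal numbers and at the stricter q, and 0.058 in a 5 kb window; at Sod2, -0.015 and -0.027 with equal numbers and the stricter q; at Gclm, 0.024 at the stricter q and 0.0026 at 1 kb; at Gclc, -0.0027 at the stricter q. For regions they were, at Nfe2l2, 0.017 without centring, 0.12 with array weights, 0.67 with equal numbers and 0.87 at the stricter q; at Sod1, 0.062 without centring, 0.0033 with quantiles, 0.049 with equal numbers and 0.051 at the stricter q; at Sod2, 0.089, 0.030 and 0.013 without centring, with quantiles and with array weights. At Hmox1 they were -0.13 with quantiles and -0.0028 with 500 bp, and at Gclc -0.036 and -0.034 with equal numbers and the stricter q. The Hmox1 summit offset difference was -16.8 bp with array weights. The cause was not tested. Leaving out 1 library gave log2 ranges of -0.26 to 0.51 (0.51 without transgenic replicate 1), -0.039 to 0.0042 and -0.0082 to 0.035 for the windows of Nfe2l2, Sod1 and Sod2. With no change of sign, the windows ranged over -0.17 to -0.11 at Keap1, 0.021 to 0.21 at Hmox1, -0.34 to -0.15 at Nqo1, -0.075 to -0.015 at Gclm, 0.020 to 0.22 at Gclc and -0.093 to -0.017 at Cat. They were -0.36 to 0.46, -0.076 to 0.11, -0.093 to 0.11 and -0.070 to 0.019 for the regions of Nfe2l2, Hmox1, Gclc and Sod2. Summit differences ranged over -219 to 149, -37.8 to 13.6, -12.8 to 11.3, -49.2 to 22.2, -89.0 to 6.33, -157 to 58.3 and -61.4 to 6.25 bp at Nfe2l2, Keap1, Hmox1, Gclm, Gclc, Sod2 and Cat. The start-site alternative gave no value at Hmox1 and Gclc, which the promoter table does not hold, and the summit alternatives with equal numbers and the stricter q gave none at Nfe2l2.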
